A study of Mus musculus with 19 samples.

Results

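Lymphoid-primed multipotent progenitors (LMPP) of the fetal liver were compared with LMPP of the adult bone marrow across all genes. The members were all samples labelled as LMPP, 10 of the 19 samples of the series. They comprised 6 of its 11 RNA-seq libraries, 3 per age, and 4 ATAC-seq libraries, which the authors combined into 1 peak list per age. All mice were of the C57BL/6 strain. The fetal cells came from embryos at E14.5 and the adult cells from mice aged 12 weeks, and neither group carried a named mutation or received a named treatment. Both gates took cells without lineage markers that carried cKit, Sca1, CD48 and Flt3 and lacked CD150. The adult gate also left out cells with CD11b, which the labels do not list for the fetal gate. The remaining RNA libraries were of hematopoietic stem cells (HSC), 2 fetal and 3 adult, and served here for the shared estimate of spread and for 1 comparison. Whether replicates were taken from different animals or pools is not stated in the labels, and a p-value here therefore covers only the spread among these libraries, which could be technical.

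LMPP stand early in blood formation, after the stem cell and before the lymphoid and myeloid branches part. They carry the receptor tyrosine kinase Flt3 and can give rise to lymphocytes, granulocytes and macrophages, with little output of erythrocytes or platelets. Blood formation in the fetal liver serves a growing embryo, while the adult marrow maintains a steady supply, and some RNA-binding and chromatin proteins are known to mark the fetal stage.

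The libraries held 19.8 to 64.78 M counts, and 3 counts, the most that a count of 0 allows, were worth 0.0533 to 0.152 CPM (counts scaled to the same total in each library) in an LMPP library. Levels are given as mean ± SD in CPM, fetal before adult, or as the values of replicates 1 to 3, and log2 differences, fetal minus adult, with ± SE. An adjusted p comes from edgeR's quasi-likelihood test with Benjamini-Hochberg adjustment over all genes tested. In a principal component analysis of the 6 LMPP libraries, the first component held 52.3% of the variance and parted fetal (−78.8 to −68.9) from adult (66.9 to 76.5). The second held 18.5% and set fetal LMPP 1 (60.7) and adult LMPP 3 (61) apart from the other 4 (−33.5 to −24.4). These 2 and adult HSC 3 are the libraries that stood apart, and counts are given with and without them. Fetal LMPP 1 was also the deepest library, and the ubiquitin gene Ubb took 2.59% of the counts of adult LMPP 3, against 0.897% to 1.54% of the other LMPP libraries. Markers of other cells were found at low levels, and several lists differed by age. The 11 erythroblast markers summed to 136 to 429 CPM in fetal and 23.1 to 51.0 in adult LMPP, with Hbb-bt and Hbb-bs called higher and Epb42 and Slc4a1 at 0 in both. The 9 neutrophil markers summed to 17.4 to 39.0 against 2.74 to 4.51 CPM, the 9 megakaryocyte markers to 18.6 to 61.7 against 10.5 to 23.2 (Pf4, Gp1bb, Treml1 and Ppbp called higher), and the 10 hepatocyte markers to 33.5 to 88.8 against 35.7 to 49.3 (Apoa1 and Alb called higher). Alb, Ttr, Serpina1a and Fgb were at 0 in the adult libraries. The 9 T and NK cell markers summed to 83.1 to 114 against 370 to 512 CPM, with Nkg7 and Lck called lower and Cd3e and Ncr1 at 0 in both. The 9 endothelial markers summed to 34 to 58.9 against 27.8 to 32.2 CPM, with Kdr and Tek called higher. The 10 macrophage markers summed to 3.44 to 7.2 against 9.8 to 17.3 CPM, with C1qb called lower, and the 9 markers of mast cells, basophils and eosinophils to 30.7 to 52.2 against 73.8 to 108, with none called. The part of these cells in the results was not tested. In sorted cells measured in bulk, fewer cells of a type and less RNA per cell cannot be told apart.

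Of 14720 genes tested, 1042 were higher in fetal LMPP (7.08%) and 1221 were lower (8.29%) at an adjusted p under 0.05 with edgeR, 15.4% in either direction. The calls differed in shape as well as in number. Genes called higher were mostly small shifts, with a median log2 difference of 0.947, and 498 of them (47.8%) reached a 2-fold difference. Genes called lower had a median log2 difference of −1.5, and 945 of them (77.4%) reached a 2-fold difference. At a log2 difference of at least 3, 204 genes were higher and 248 lower. The libraries of the groups did not overlap for 1028 and 1210 of the called genes, against 34.7% of all genes tested. Expression level went with direction. Among the 1472 genes with the highest mean CPM, 296 were higher and 75 lower. Among the other 13248, 746 were higher and 1146 lower. Under every alternative tried the first set held more higher than lower calls (156 to 630 against 50 to 160) and the second more lower calls. The counts depended on single libraries: they were 562 higher and 860 lower without adult LMPP 1. Leaving out fetal LMPP 1 gave 682 and 1168, leaving out fetal LMPP 2 gave 617 and 749, and leaving out fetal LMPP 3 gave 690 and 860. They were 1587 and 1583 without adult HSC 3, and 2195 and 2215 without the 3 libraries that stood apart. Scaling by total count moved the share of calls that were higher from 46.0% to 36% (926 higher and 1643 lower) and the median of all genes by −0.08.

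**Figure D1:**
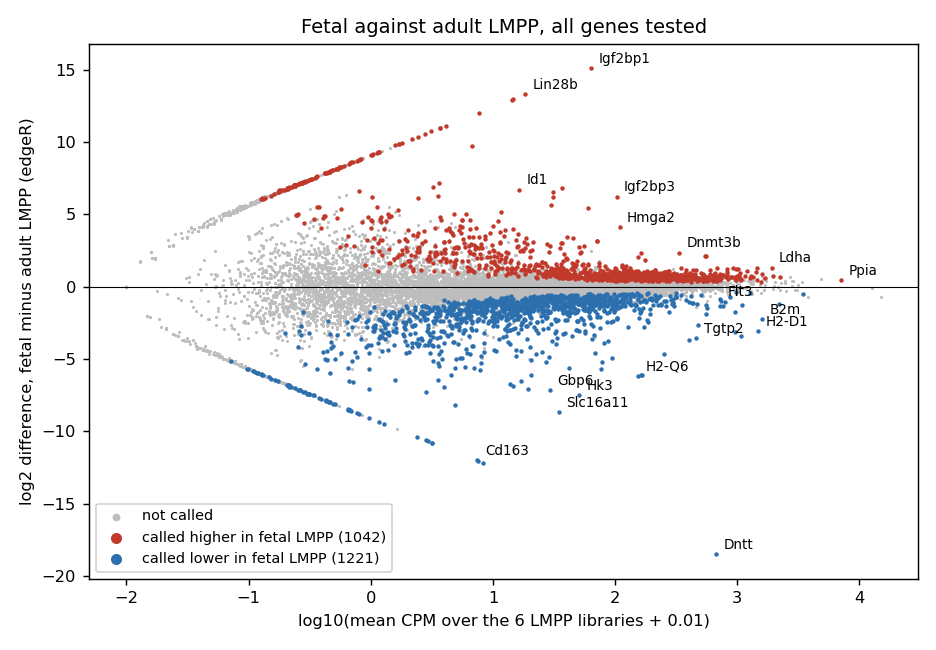
Each point is 1 of the 14720 genes tested, with the log10 of its mean CPM over the 6 LMPP libraries across and its edgeR log2 difference, fetal minus adult, up. Called genes are red (1042 higher) or blue (1221 lower), and the slanted lines of points are genes at 0 in 1 age, whose fitted value depends on the prior count. The 296 higher and 75 lower calls among the 1472 most highly expressed genes sit at the right, and the larger differences lie at low and middle levels.

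Each of the 10 LMPP markers passed the filter on low counts, and together they summed to 5370 to 6350 CPM in fetal and 6730 to 7740 CPM in adult libraries. Kit, the receptor for stem cell factor, was 427 ± 130.1 against 434 ± 239.9 CPM (log2 −0.02 ± 0.61, adjusted p = 0.998). Cd48, a surface protein of the gate, was 318 ± 69.6 against 373 ± 42.9 CPM (log2 −0.23 ± 0.36, adjusted p = 0.726). Mpo, the granule enzyme myeloperoxidase, was 2792 ± 466 against 2103 ± 255 CPM (log2 0.41 ± 0.91, adjusted p = 0.816). The gene of the excluded CD150, Slamf1, stayed at or below 0.953 CPM in every LMPP library, against 54.8 ± 2.88 against 70.9 ± 2.69 CPM in HSC (fetal against adult). The gene of CD11b, Itgam, did not pass the test, at 35.1 ± 11.3 against 27.6 ± 10.4 CPM, so the adult-only exclusion of CD11b was not mirrored by a called difference in its RNA.

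Of the 10 markers, 5 fell in fetal LMPP and none rose. Flt3, the cytokine receptor that defines the gate, was 469, 496 and 512 CPM in the fetal libraries and 1064, 950.3 and 908 CPM in the adult libraries. The fetal level was lower by −0.99 ± 0.18 on the log2 scale (adjusted p = 0.00529). Cd53, a tetraspanin of leukocytes, was 206, 188 and 173 CPM in the fetal libraries and 376, 380.1 and 463 CPM in the adult libraries (log2 −1.11 ± 0.21, adjusted p = 0.00697). Ly6a, which encodes Sca1, was 19.3 ± 4.88 against 66.9 ± 16.8 CPM (adjusted p = 0.00412), and Spn, the sialoglycoprotein CD43, was 23.2 ± 3.73 against 60.8 ± 13.7 CPM (adjusted p = 0.00384). Of 29 genes for B-lineage and lymphoid specification, 2 were called higher and 0 lower, against 7.08% and 8.29% of all genes tested. Ebf1, a B-cell transcription factor, was 7.15 ± 1.24 against 0.817 ± 0.18 CPM (adjusted p = 0.0278), and Rag1, of the antigen receptor recombinase, was 3.07 ± 2.05 against 0.514 ± 0.071 CPM (adjusted p = 0.0281). Both calls were lost when single libraries were left out: adjusted p for Ebf1 ran from 0.0518 without fetal LMPP 1 to 0.0876 without fetal LMPP 2, with all 6 LMPP libraries in that range, and for Rag1 from 0.063 without adult LMPP 3 to 0.128 without fetal LMPP 3, with the call kept only without fetal LMPP 1. Il7r, the interleukin 7 receptor, was 37.7 ± 16.9 against 16.7 ± 2.33 CPM and did not pass (adjusted p = 0.151). It passed under DESeq2 (0.0359) and without the 3 libraries that stood apart (0.0272).

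The largest rises included all 3 genes of the Igf2bp family, RNA-binding proteins known as a mark of fetal tissues. Igf2bp1 (mm10 chr11:95957164-96005944) was 81.8, 149 and 150.4 CPM in the fetal libraries and had no count in any adult library, at least 1140-fold higher against the floor of 3 counts per library. Igf2bp2 (chr16:22059009-22163299) was 100.1, 117 and 134 CPM in the fetal libraries and 2.38, 2.83 and 2.91 CPM in the adult libraries. Igf2bp3 (chr6:49085218-49214954) was 214, 200 and 197 CPM in the fetal libraries and 3.64, 1.85 and 2.72 CPM in the adult libraries. The log2 differences of the latter pair were 5.42 ± 0.25 (adjusted p = 1.49e-06) and 6.23 ± 0.36 (adjusted p = 7.82e-06), and each fetal library exceeded each adult library by more than an order of magnitude. Lin28b (chr10:45376619-45470201), the RNA-binding protein that blocks maturation of let-7 microRNAs, was 27.8, 47.6 and 35.2 CPM in the fetal libraries and 0 in all adult ones, at least 331-fold higher. Hmga2, a chromatin protein and known let-7 target, was 135, 276 and 206 CPM in the fetal libraries and 16.3, 10.7 and 8.58 CPM in the adult libraries (log2 4.12 ± 0.42, adjusted p = 0.000224).

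Promoter sequences of 3 of these genes are shown because the open chromatin lists bear on them. A fetal peak absent from the adult list lay at the start of Igf2bp2 (chr16:22162451-22163872) and of Igf2bp3 (chr6:49214619-49215859). Lin28b had a peak within 1 kb of its start in both lists. The fetal one (chr10:45470011-45470613) covered the start, while the adult one (chr10:45469087-45470019) stopped 182 bases inside the gene. Each window runs from 250 bases before to 50 after the start, in RefSeq GRCm38.p6: chr16:22163250-22163549, chr6:49214905-49215204 and chr10:45470152-45470451, all on the minus strand. Capitals mark GGGCGG, the SP1 and KLF motif, in Igf2bp2, and CACGTG, the Myc E-box, in the others, searched on both strands. Of 11228 promoters of tested genes, 63.9% held GGGCGG and 10.3% held CACGTG.
Igf2bp2: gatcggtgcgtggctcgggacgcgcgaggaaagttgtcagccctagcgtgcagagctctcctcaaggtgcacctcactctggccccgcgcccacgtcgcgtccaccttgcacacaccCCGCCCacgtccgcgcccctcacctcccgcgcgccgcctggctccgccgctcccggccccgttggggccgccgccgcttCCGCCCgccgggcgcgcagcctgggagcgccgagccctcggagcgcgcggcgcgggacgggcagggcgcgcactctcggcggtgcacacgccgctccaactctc
Igf2bp3: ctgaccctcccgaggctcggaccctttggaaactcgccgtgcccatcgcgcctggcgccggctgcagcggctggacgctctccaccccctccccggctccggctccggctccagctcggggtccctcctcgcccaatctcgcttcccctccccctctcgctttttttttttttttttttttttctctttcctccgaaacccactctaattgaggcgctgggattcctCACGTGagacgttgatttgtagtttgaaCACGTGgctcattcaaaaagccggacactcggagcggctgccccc
Lin28b: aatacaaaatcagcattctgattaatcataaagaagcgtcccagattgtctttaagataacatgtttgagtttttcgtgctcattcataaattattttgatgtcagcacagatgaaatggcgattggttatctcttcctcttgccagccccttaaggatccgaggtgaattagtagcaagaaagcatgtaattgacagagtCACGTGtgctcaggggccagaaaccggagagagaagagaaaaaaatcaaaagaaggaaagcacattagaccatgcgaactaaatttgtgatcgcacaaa

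In Igf2bp3 the 2 matches began 23 bases before the start and at base 6 after it, and in Lin28b the match began 49 bases before. A match describes the letters of the window and no more.

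Genes of BMP and TGF-beta signalling were not shifted as a list, but the Id genes, inhibitors of basic helix-loop-helix factors and known BMP targets, rose. Of 33 tested genes of the list, 4 were higher and 2 lower (1 lower without fetal LMPP 3), with a median log2 difference of −0.02 against 0.0 over all genes. Id1 was 34.5, 28.6 and 34 CPM in the fetal libraries and 0.455, 0.168 and 0.327 CPM in the adult libraries, a log2 difference of 6.72 ± 0.38 (adjusted p = 7.68e-06). Id3 was 61.1, 48.3 and 75.1 CPM in the fetal libraries and 1.11, 0.448 and 0.982 CPM in the adult libraries (log2 6.21 ± 0.41, adjusted p = 1.5e-05), and Id2 was 63.7 ± 26.6 against 15.8 ± 5.97 CPM (adjusted p = 0.00919). All fetal libraries exceeded all adult ones for the 3 Id genes, as for 1028 of the 1042 genes called higher. Smad6, an inhibitory Smad, was 17 ± 0.784 against 6.84 ± 1.95 CPM (adjusted p = 0.00588), while Ltbp3, which binds latent TGF-beta, was 2.83 ± 0.274 against 35.3 ± 19.6 CPM (adjusted p = 0.00407).

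Further rises of over 5 on the log2 scale were seen for genes of varied function. Dlk1, an imprinted membrane protein, was 68.6, 56.7 and 60.6 CPM in the fetal libraries and 0.152, 1.01 and 0.655 CPM in the adult libraries (log2 6.59 ± 0.47, adjusted p = 2.49e-05). Cdh17, an intestinal and B-cell cadherin, was 23.3, 20.03 and 25.1 CPM in the fetal libraries and 1.21, 0.28 and 0.426 CPM in the adult libraries (adjusted p = 0.0061). Grrp1, a glycine and arginine rich protein, was 11.7 ± 3.79 against 0.344 ± 0.0849 CPM (adjusted p = 0.000277). Mzb1, a chaperone of immunoglobulin assembly in B cells, was 54.9, 61.7 and 58.8 CPM in the fetal libraries and 0.707, 0.924 and 1.77 CPM in the adult libraries (adjusted p = 0.00238). No library of one age reached the level of the other for these 4 genes, which the naming rule required of the largest rises. Snrpn, an imprinted splicing protein gene, was 10.6 ± 1.25 against 0.424 ± 0.157 CPM (log2 4.6 ± 0.40, adjusted p = 7.66e-05), although it shares its transcript with Snurf and single values of the pair are uncertain. Rps4l, a ribosomal protein S4 copy, was 88.2 ± 4.45 against 17 ± 1.73 CPM (log2 2.37 ± 0.18, adjusted p = 3.81e-05), and its reads can be split with near-identical copies. Ccnd1, which encodes cyclin D1, was 53.9 ± 3.47 against 18.3 ± 2.07 CPM (log2 1.56 ± 0.20, adjusted p = 0.000915).

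The largest fall was that of Dntt, the terminal transferase that adds nucleotides at antigen receptor joints and is known to be absent from early fetal lymphocytes. Dntt (chr19:41029275-41059525) had no count in the 3 fetal libraries and stood at 1167, 1182 and 1694 CPM in the adult libraries, at least 13900-fold lower against the floor. It had no peak within 1 kb of its start in either list. The adult list alone held peaks upstream (chr19:41021934-41022953) and within the gene (chr19:41053534-41053987), and both lists held peaks inside the gene nearer its start. The promoter is shown since the gene has the largest difference of all, with the GATA motif AGATAA in capitals (chr19:41029025-41029324, plus strand, RefSeq GRCm38.p6). It was found on 1 strand at 112 bases before the start, and 6.45% of promoters held it on either strand.
Dntt: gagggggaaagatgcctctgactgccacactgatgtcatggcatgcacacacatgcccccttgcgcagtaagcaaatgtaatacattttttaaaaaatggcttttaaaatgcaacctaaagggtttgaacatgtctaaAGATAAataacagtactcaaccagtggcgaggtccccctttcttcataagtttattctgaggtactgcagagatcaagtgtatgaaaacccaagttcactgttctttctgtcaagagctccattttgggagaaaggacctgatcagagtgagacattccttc

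Other large falls spanned metabolism, signalling and cell cycle control. Esr1, the estrogen receptor alpha, was 0.48, 0 and 0.595 CPM in the fetal libraries and 28.9, 43.4 and 28.2 CPM in the adult libraries (log2 −6.51 ± 0.76, adjusted p = 0.000494). Cdkn2c, an inhibitor of the cyclin D kinases, was 0, 0.628 and 1.27 CPM in the fetal libraries and 35.8, 31 and 53.8 CPM in the adult libraries (log2 −6.12 ± 0.98, adjusted p = 0.00265). Ndrg1, a stress-responsive growth inhibitor, was 8.29, 3.73 and 4.08 CPM in the fetal libraries and 142, 165 and 86.1 CPM in the adult libraries (log2 −4.59 ± 0.44, adjusted p = 0.00014). In each of the 3 the fetal libraries lay far below the lowest adult one. The ages did not overlap for 1210 of the 1221 genes called lower. Anxa2, the calcium-dependent membrane protein annexin A2, was 11.2 ± 4.4 against 103 ± 8.4 CPM (log2 −3.2 ± 0.35, adjusted p = 0.000348). Sp100, a component of nuclear bodies, was 31.5 ± 5.64 against 161 ± 8.73 CPM (log2 −2.36 ± 0.17, adjusted p = 2.52e-05). Malat1, a nuclear long noncoding RNA, was 443 ± 54.5 against 1470 ± 594 CPM, with adult LMPP 3 highest at 2141 CPM (adjusted p = 0.00381). Serinc3, a membrane protein that restricts viruses, was 1325 ± 136 against 3081 ± 391 CPM (adjusted p = 0.00033), and Itm2b, an integral membrane protein, was 637 ± 128 against 1551 ± 295 CPM (adjusted p = 0.00365).

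**Figure D2:**
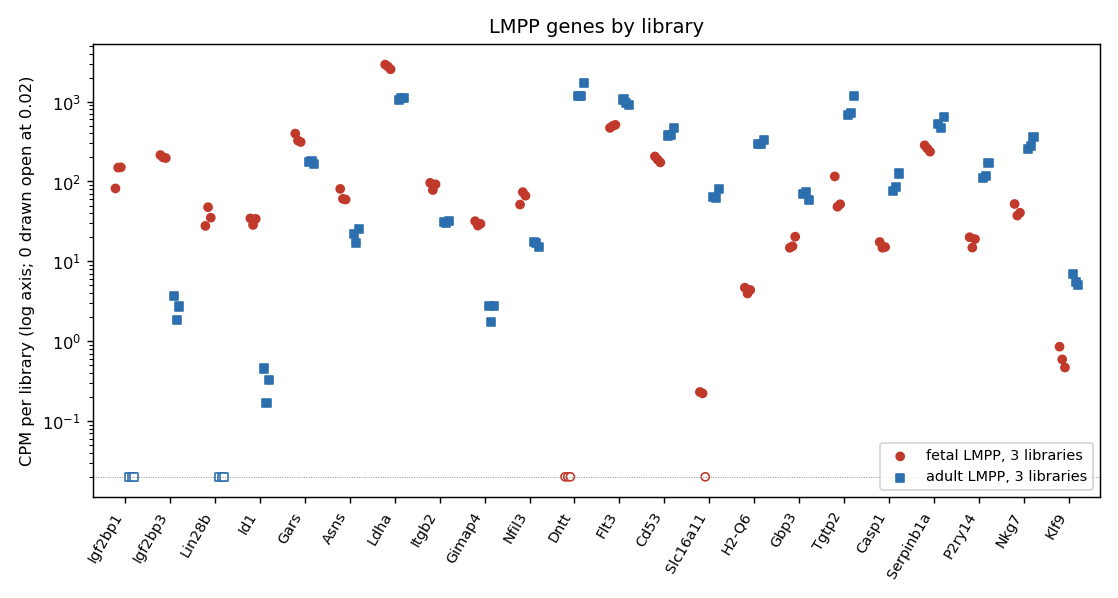
CPM of genes named here in each of the 6 LMPP libraries, 1 point per library on a log axis, with fetal libraries as red circles, adult libraries as blue squares and values of 0 drawn open at the bottom. The ages do not overlap for any gene, as for 1028 of 1042 higher and 1210 of 1221 lower calls. Igf2bp3 is at 197 to 214 against 1.85 to 3.64 CPM and H2-Q6 at 3.95 to 4.67 against 293 to 328 CPM.

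Many genes of protein synthesis were called higher in fetal LMPP. Highly expressed genes leaned the same way, with 296 higher and 75 lower among the 1472 with the highest mean CPM. The lists were not compared with genes of like level. All 20 aminoacyl-tRNA synthetases tested, the enzymes that charge tRNAs, had a positive log2 difference (median 0.76), and 14 were called higher and 0 lower. Gars, the glycine enzyme, was 398, 325 and 312 CPM in the fetal libraries and 177, 180 and 167 CPM in the adult libraries (log2 0.98 ± 0.13, adjusted p = 0.000854). Tars, for threonine, was 283 ± 35.2 against 144 ± 10.7 CPM (adjusted p = 0.0011), and Yars, for tyrosine, was 162 ± 17.9 against 72.9 ± 10.1 CPM (adjusted p = 0.0013). The libraries of the 2 ages did not overlap for any of the 3, as for 1028 of the 1042 genes called higher. Of 37 translation initiation and elongation factors, 11 were higher and 0 lower (median 0.55). Eef1d, an elongation factor subunit, was 331 ± 22.4 against 183 ± 13.9 CPM (log2 0.85 ± 0.14, adjusted p = 0.00262). The initiation factor 3 subunits Eif3b and Eif3d were 801 ± 46.4 against 454 ± 48.8 CPM (adjusted p = 0.00262) and 335 ± 23.6 against 196 ± 20.6 CPM (adjusted p = 0.00282). The synthetase count was 9 without adult LMPP 1. The factor count was 5 when adult LMPP 1 was left out, 6 when fetal LMPP 1 or fetal LMPP 2 was, and 29 without the 3 libraries that stood apart.

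Some genes of amino acid supply were also higher, where 7.08% of all genes tested were higher and 8.29% lower. Of 29 genes of amino acid synthesis and one-carbon metabolism, 12 were higher and 1, the folate enzyme Aldh1l1, was lower (median 0.74). Asns, asparagine synthetase, was 80.7, 60.5 and 59.4 CPM in the fetal libraries and 21.8, 17.1 and 25.6 CPM in the adult libraries (log2 1.64 ± 0.23, adjusted p = 0.00113). Mthfd2 and Mthfd1l, mitochondrial folate enzymes, were 77.4 ± 7.69 against 32.8 ± 3.42 CPM (adjusted p = 0.00129) and 106 ± 1.51 against 57.4 ± 6.44 CPM (adjusted p = 0.00404). Got2, the mitochondrial aspartate aminotransferase, was 395 ± 7.03 against 247 ± 17 CPM (adjusted p = 0.00307). Of 20 amino acid transporters 4 were higher and 0 lower, among them Slc1a4, a neutral amino acid carrier, at 10.3 ± 3.12 against 1.23 ± 0.632 CPM (adjusted p = 0.00343), and Slc7a6, a carrier of cationic amino acids, at 84.2 ± 3.25 against 49.1 ± 7.47 CPM (adjusted p = 0.00983). The transporter count was 8 without the 3 libraries that stood apart.

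Of 36 mitochondrial ribosome and import genes 10 were called higher and 0 lower (median 0.5), for example Mrps5 at 92.6 ± 5.74 against 58.1 ± 2.7 CPM (adjusted p = 0.011). That count was 2 when adult LMPP 1, adult LMPP 2 or fetal LMPP 2 was left out, 4 when fetal LMPP 1 or fetal LMPP 3 was, and 27 without the 3 libraries that stood apart. Of 25 subunits of RNA polymerases I and III, which make ribosomal and transfer RNA, 3 were higher and 0 lower. Over all genes tested the shares were 7.08% and 8.29%. Polr3g led this list at 52.5 ± 7.5 against 22.8 ± 3.72 CPM (adjusted p = 0.00188). The polymerase count was 1 when adult LMPP 1 or adult LMPP 2 was left out or only the LMPP libraries were fitted, and 8 without the 3 libraries that stood apart. Grouping all gene symbols by their root put other groups first: among roots with at least 10 tested genes, the highest shares called higher were those of Utp (5 of 11, ribosome small subunit processing), Psmd (6 of 14, proteasome lid and base), Mcm (4 of 10, the replicative helicase) and Hspa (4 of 13, Hsp70 chaperones, with 2 lower). Eif, of initiation factors, and Polr, of RNA polymerases, ranked lower, with 14 of 54 and 7 of 28. Across the alternatives the Utp count ran from 1 to 5, that of Psmd from 3 to 11 and that of Mcm from 1 to 5. Psmd2 was 675 ± 94.9 against 377 ± 18.8 CPM (adjusted p = 0.00364).

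The genes with the largest gain in CPM belonged to the same housekeeping kinds. Hspd1, the mitochondrial chaperonin Hsp60, was 1417, 1479 and 1196 CPM in the fetal libraries and 508, 582 and 629.7 CPM in the adult libraries (log2 1.25 ± 0.13, adjusted p = 0.000271). Npm1 and Ncl, nucleolar proteins of ribosome assembly, were 1631 ± 242 against 773 ± 83.7 CPM (log2 1.08 ± 0.14, adjusted p = 0.000915) and 1902 ± 127 against 947 ± 132 CPM (log2 1.01 ± 0.14, adjusted p = 0.00103). Hsp90ab1, a cytosolic chaperone, was 2466 ± 181 against 1443 ± 159.6 CPM (adjusted p = 0.00241). Atp5b, the catalytic subunit of ATP synthase, was 2732 ± 291 against 1706 ± 171 CPM (adjusted p = 0.0055). The glycolytic enzymes Pkm and Eno1 were 2058 ± 242 against 1136 ± 96.1 CPM (adjusted p = 0.00453) and 2039 ± 364 against 841 ± 201 CPM (adjusted p = 0.00835), and Eno1 shares reads with its copy Eno1b.

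Genes of the hypoxia response were split, where all genes tested gave 7.08% higher and 8.29% lower. Of 27 tested, 8 were higher and 3 lower, with a median log2 difference of 0.02. The higher count was 5 without adult LMPP 3 or without fetal LMPP 3, and the lower count was 1 when fetal LMPP 2 or 3 was left out. Slc2a1, the glucose transporter GLUT1, was 85.9, 74 and 83.1 CPM in the fetal libraries and 27.5, 36.7 and 32.9 CPM in the adult libraries (log2 1.32 ± 0.20, adjusted p = 0.00183). Ankrd37, a small ankyrin repeat protein, was 11.9 ± 4.27 against 2.99 ± 0.834 CPM (adjusted p = 0.00596). Hif1a, the oxygen-sensitive transcription factor itself, was called higher, at 166 ± 33.2 against 89.2 ± 22.1 CPM (adjusted p = 0.0373).

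**Figure D3:**
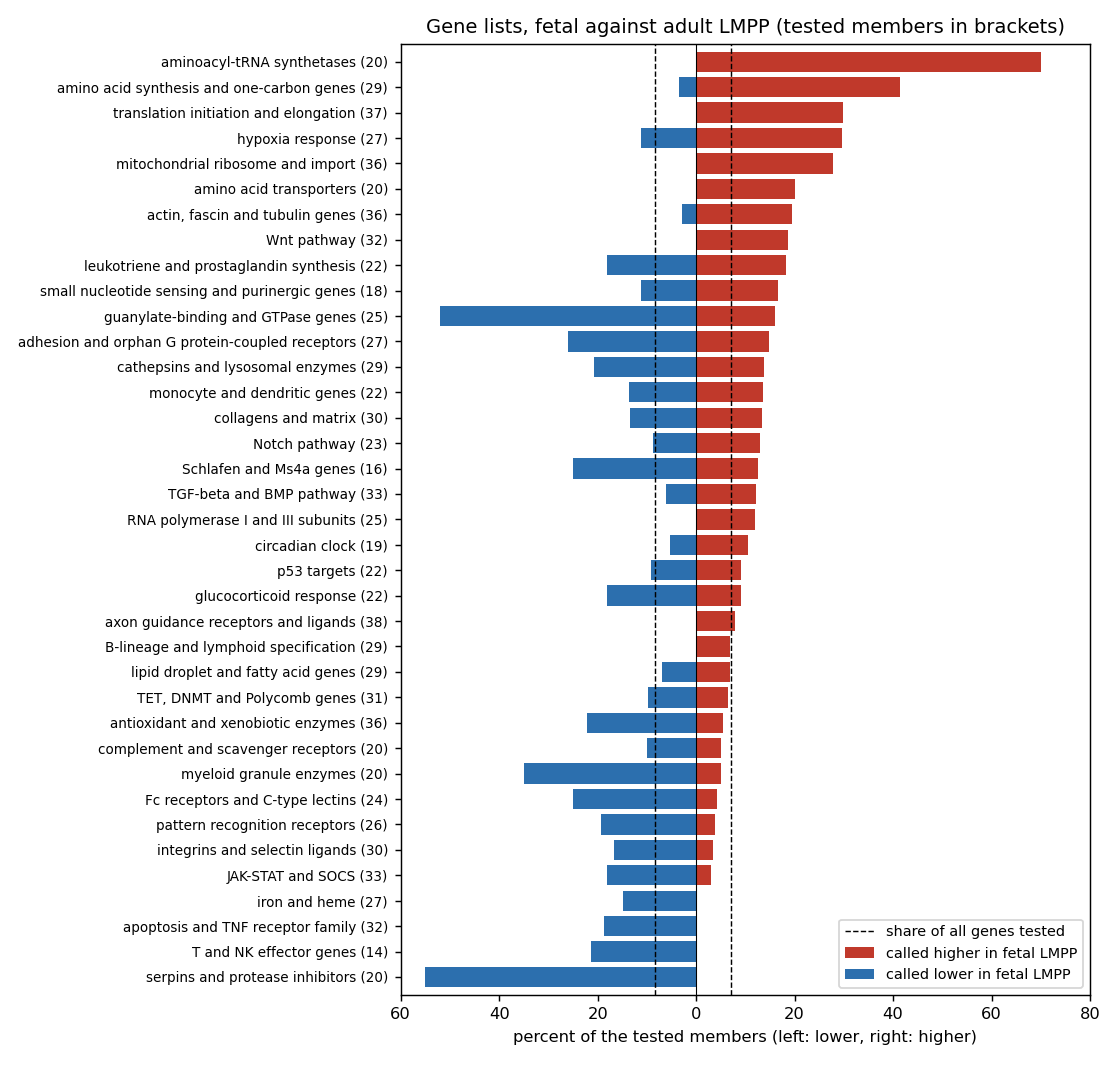
For each of the 37 gene lists, bars to the right give the share of tested members called higher in fetal LMPP and bars to the left the share called lower, in percent, and dashed lines mark the shares over all genes, 7.08% and 8.29%. The synthetases reach 14 of 20 on the right and the guanylate-binding and GTPase genes 13 of 25 on the left. The dashed lines take no account of expression level.

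The falls gathered in genes of interferon response and antigen presentation. Of 25 guanylate-binding and immunity GTPase genes, 13 were lower and 4 higher (median −1.49). The lower members included 7 of the 10 tested Gbp genes, which encode GTPases that attack intracellular microbes. Gbp3 was 14.8, 15.4 and 20.4 CPM in the fetal libraries and 70.1, 73.5 and 59.3 CPM in the adult libraries (log2 −2.0 ± 0.24, adjusted p = 0.000549), and Gbp10 was 0.206 ± 0.286 against 29.2 ± 24.8 CPM (adjusted p = 0.00144). Tgtp2, a T-cell GTPase induced by interferon, was 116, 48.2 and 51.9 CPM in the fetal libraries and 677, 717 and 1164 CPM in the adult libraries (log2 −3.57 ± 0.48, adjusted p = 0.00104). Tgtp2 shares reads with its near-identical neighbour Tgtp1. The 4 higher members were all Gimap genes, a family of lymphocyte survival GTPases on 1 stretch of chromosome 6. Gimap4 was 31.8, 28 and 29.5 CPM in the fetal libraries and 2.73, 1.74 and 2.75 CPM in the adult libraries (log2 3.63 ± 0.32, adjusted p = 8.34e-05). Gimap5 was 51.2 ± 7.84 against 27.8 ± 2.69 CPM (adjusted p = 0.00671), and Gimap3 was 4.62 ± 1.28 against 1.36 ± 0.31 CPM (adjusted p = 0.0143).

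Some genes of interferon signalling and of innate sensing were also lower, where 8.29% of all genes tested were lower and 7.08% higher. Of 33 JAK-STAT and SOCS genes 6 were lower and 1 higher (median −0.17). Irf7, Irf9 and Irf1, interferon regulatory factors, were 16.6 ± 4.35 against 44.9 ± 3.9 CPM (adjusted p = 0.00227), 56.4 ± 6.49 against 132 ± 12.5 CPM (adjusted p = 0.00379) and 107 ± 13.7 against 202 ± 19 CPM (adjusted p = 0.00615). Of 26 pattern recognition receptors 5 were lower and 1 higher, led by Nlrc5, the activator of MHC class I genes, at 1.68 ± 1.21 against 26 ± 14.2 CPM (log2 −3.97 ± 0.66, adjusted p = 0.00328), and Dhx58, an RNA sensor, at 20.6 ± 5.6 against 45.2 ± 3.93 CPM (adjusted p = 0.0118). The lower receptor count was 3 when adult LMPP 1 or 2 or fetal LMPP 1 or 2 was left out, and the lower JAK-STAT count was 11 without the 3 libraries that stood apart. Of 32 genes of apoptosis and the TNF receptor family 6 were lower and 0 higher. The inflammatory caspase Casp1 was 17.4, 14.8 and 15.1 CPM in the fetal libraries and 75.4, 86.2 and 126 CPM in the adult libraries (log2 −2.6 ± 0.28, adjusted p = 0.000342), and Casp12 and Casp4, its neighbours, were 0.34 ± 0.589 against 15.4 ± 0.915 CPM (adjusted p = 0.00492) and 2.15 ± 1.47 against 9.67 ± 1.25 CPM (adjusted p = 0.0078). Tnfrsf26, a TNF receptor family member, was 12.5 ± 2.96 against 30.7 ± 2.57 CPM (adjusted p = 0.00924).

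Genes called in 1 direction without a break gathered on chromosome 17, in the MHC. Of the 764 genes tested there, 13.5% were lower and 3.93% higher, against 8.29% and 7.08% of all genes. Runs of at least 4 neighbouring tested genes called the same way numbered 14, 9 lower and 5 higher. The 3 longest were all in the MHC: 12 genes from H2-D1 to Tcf19 (chr17:35263094-35516824, median log2 −3.68), 11 from H2-DMa to H2-Eb1 (chr17:34125518-34316674, −2.41) and 9 from H2-T24 to Gm7030 (chr17:36005695-36129425, −3.01). B2m, the common light chain of class I molecules, was 620.5, 531 and 532 CPM in the fetal libraries and 2435, 2236 and 3257 CPM in the adult libraries (log2 −2.23 ± 0.17, adjusted p = 3.73e-05). Tap1, the transporter that loads class I peptides, was 49.3, 60.4 and 59.97 CPM in the fetal libraries and 247, 277 and 249.9 CPM in the adult libraries (log2 −2.19 ± 0.14, adjusted p = 1.37e-05). The class II genes fell as well: H2-DMb1, a class II peptide exchanger, was 7.76 ± 0.912 against 69.7 ± 14.46 CPM (adjusted p = 0.000109), H2-Ob, its regulator, was 12.1 ± 3.77 against 164 ± 35.1 CPM (adjusted p = 4.31e-05), and H2-Eb1, a class II chain, was 0.293 ± 0.445 against 27.1 ± 10.4 CPM (adjusted p = 0.00114). H2-Q6, a nonclassical class I gene, had the lowest p of the named genes, 4.67, 3.95 and 4.38 CPM in the fetal libraries and 297, 293 and 328 CPM in the adult libraries (log2 −6.14 ± 0.14, adjusted p = 6.13e-09). The H2-Q, H2-T and H2-D genes are near-identical copies, so the split of reads among them is uncertain.

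Protease inhibitors were also among the lower genes. Of 20 serpins and other inhibitors, 11 were lower and 0 higher (median −1.07). Of these, Serpina3f and Serpina3g belong to a run of 5 neighbouring Serpina3 copies, all called lower, on chromosome 12 (chr12:104214454-104414329, median log2 −2.34). Serpina3f, an inhibitor of serine proteases, was 2.06, 0.628 and 1.53 CPM in the fetal libraries and 5.1, 9.13 and 7.43 CPM in the adult libraries (log2 −2.34 ± 0.45, adjusted p = 0.00689). Serpinf1, a secreted serpin, was 30.2 ± 12.1 against 113 ± 22.4 CPM (adjusted p = 0.00469), and Spint2, a Kunitz inhibitor, was 84.5 ± 17.4 against 212 ± 17.6 CPM (adjusted p = 0.00127).

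Promoters of 4 of the genes lower in fetal LMPP are shown, since the ages differ in peaks at 2 of them and the genes moved together. H2-Q6 (chr17:35424669-35425321) and Serpina3f (chr12:104213996-104214632) had a peak at the start in the adult list only. Gbp3 had one in both lists, and Tgtp2 had an adult peak only inside the gene (chr11:49059954-49060338). The windows are chr17:35424600-35424899, chr12:104214294-104214593, chr3:142559794-142560093 (plus strand) and chr11:49064163-49064462 (minus strand) of RefSeq GRCm38.p6. Capitals mark CCAAT, the NF-Y motif, in H2-Q6, and GAAANNGAA, a form of the interferon-stimulated response element, in the others, on either strand. Of all 11228 promoters, 38.7% held CCAAT and 7.31% held GAAANNGAA.
H2-Q6: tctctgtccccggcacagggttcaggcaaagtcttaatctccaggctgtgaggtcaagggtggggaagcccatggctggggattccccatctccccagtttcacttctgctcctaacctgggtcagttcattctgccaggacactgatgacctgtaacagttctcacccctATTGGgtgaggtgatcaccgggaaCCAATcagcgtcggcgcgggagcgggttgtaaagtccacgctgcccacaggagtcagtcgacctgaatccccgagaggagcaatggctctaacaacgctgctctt
Serpina3f: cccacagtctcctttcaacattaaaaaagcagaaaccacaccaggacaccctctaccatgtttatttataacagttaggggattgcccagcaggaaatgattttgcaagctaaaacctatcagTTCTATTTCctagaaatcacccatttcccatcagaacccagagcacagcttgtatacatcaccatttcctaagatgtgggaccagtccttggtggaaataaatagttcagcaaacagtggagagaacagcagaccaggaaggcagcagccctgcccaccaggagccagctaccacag
Gbp3: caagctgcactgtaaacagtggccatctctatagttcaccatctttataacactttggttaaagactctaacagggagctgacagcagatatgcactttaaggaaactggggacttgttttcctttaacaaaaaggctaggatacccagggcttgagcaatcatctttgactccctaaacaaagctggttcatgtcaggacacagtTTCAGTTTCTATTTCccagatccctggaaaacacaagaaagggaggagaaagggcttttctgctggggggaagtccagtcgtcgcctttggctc
Tgtp2: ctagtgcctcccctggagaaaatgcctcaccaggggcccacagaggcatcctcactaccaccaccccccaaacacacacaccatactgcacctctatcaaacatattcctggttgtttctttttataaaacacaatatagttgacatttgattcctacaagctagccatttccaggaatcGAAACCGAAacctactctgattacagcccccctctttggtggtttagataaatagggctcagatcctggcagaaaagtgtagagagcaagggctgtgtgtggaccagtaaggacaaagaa

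The matches began 127 bases before the start in Serpina3f and 70 before it in Tgtp2. In Gbp3 a pair that overlaps began 44 and 38 bases before. GAAANNGAA was also found in genes higher in fetal LMPP, 69 bases before the start of Igf2bp3, where it is not marked above, and 154 before that of Ebf1. Windows were found for 11228 of the 14720 tested genes, under 80%, so a comparison of motif shares between called and other genes would be void and is not given.

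Effector genes of lymphoid and myeloid cells gave calls in both directions, beside 7.08% higher and 8.29% lower of all genes tested. Of 14 tested T and NK effector genes 3 were lower and 0 higher (median −0.07; 1 lower without fetal LMPP 3, and 2 when any adult library or fetal LMPP 2 was left out), led by Cd96, an adhesion receptor of T and NK cells, at 11.4 ± 3.08 against 56.4 ± 16.8 CPM (log2 −2.3 ± 0.30, adjusted p = 0.000915). Nkg7, a granule protein of cytotoxic cells, was 52.2, 37.4 and 40.6 CPM in the fetal libraries and 257, 278 and 363 CPM in the adult libraries (log2 −2.79 ± 0.30, adjusted p = 0.00033). Of the 9 T and NK cell markers, Cd3e and Ncr1 were at 0 in both ages and Cd8a in the fetal libraries only. Nkg7 and Lck were called lower. Of 20 myeloid granule genes 7 were lower and 1 higher, with 4 lower without fetal LMPP 2. Prss57, a neutrophil serine protease, was 17.4 ± 3.1 against 63.9 ± 11.5 CPM (adjusted p = 0.000651). Plac8 and Srgn, which encode a small cysteine-rich protein and the granule proteoglycan serglycin, were 305 ± 62.5 against 827 ± 59.6 CPM (adjusted p = 0.00665) and 289.7 ± 59.5 against 646 ± 78.2 CPM (adjusted p = 0.0018). The higher member was Ltf, the lactoferrin of late neutrophils, at 6.42 ± 4.19 against 0.0555 ± 0.0513 CPM (adjusted p = 0.00671), which moved with the neutrophil markers given above. Of 22 monocyte and dendritic genes 3 were higher (7 without the 3 libraries that stood apart) and 3 lower (1 when adult LMPP 2 or 3 or fetal LMPP 1 or 2 was left out), with Cybb, the phagocyte oxidase subunit, at 15.7 ± 11.8 against 1.36 ± 0.241 CPM (adjusted p = 0.00826).

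Receptors at the cell surface were called in both directions, against 7.08% higher and 8.29% lower over all genes tested. Of 24 Fc receptors and C-type lectins 6 were lower and 1 higher, 3 lower without adult LMPP 1 or any 1 of the fetal libraries. Clec2i, a ligand of NK receptors, was 3.13 ± 1.56 against 28.7 ± 4.61 CPM (adjusted p = 0.0136), and Clec10a, a galactose-binding lectin, was 0.357 ± 0.309 against 10.3 ± 1.38 CPM (adjusted p = 0.0174). Of 27 adhesion and orphan G protein-coupled receptors 7 were lower and 4 higher. The lower count was 3 when adult LMPP 1 was left out, 4 when any fetal library was, and 11 without the 3 libraries that stood apart. Gpr183, the oxysterol receptor that guides lymphocytes, was 6.48, 12.2 and 12 CPM in the fetal libraries and 0.91, 0.812 and 0.589 CPM in the adult libraries (log2 3.73 ± 0.56, adjusted p = 0.00188). S1pr3, a sphingosine phosphate receptor, was 5.56 ± 2.18 against 37.5 ± 7.09 CPM (adjusted p = 0.00556). Gpr171 and Adgrg3 were 146 ± 17.1 against 372 ± 96.9 CPM (adjusted p = 0.00257) and 175 ± 32.4 against 435 ± 19.7 CPM (adjusted p = 0.00726). Among 18 purinergic and nucleotide genes 3 were higher and 2 lower (1 higher when adult LMPP 2 or fetal LMPP 2 was left out, 8 without the 3 libraries that stood apart). P2ry14, the receptor for UDP-glucose, was 20.04, 14.8 and 18.9 CPM in the fetal libraries and 109.8, 116 and 169.7 CPM in the adult libraries (log2 −2.88 ± 0.28, adjusted p = 0.000143). P2rx1, an ATP-gated channel, was 35.5 ± 7.91 against 12.4 ± 4.63 CPM (adjusted p = 0.00882), and Adora2a, an adenosine receptor, was 3.69 ± 0.708 against 16.4 ± 1.47 CPM (adjusted p = 0.000347).

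Adhesion, matrix and cytoskeleton genes were also called, where 7.08% of all genes tested were higher and 8.29% lower. Of 30 integrins and selectin ligands 5 were lower and 1 higher. Itgb2, the beta chain of leukocyte integrins, was 96.1, 78.2 and 92.1 CPM in the fetal libraries and 31.2, 30.5 and 32.2 CPM in the adult libraries (log2 1.5 ± 0.17, adjusted p = 0.000421). Itgb5, a beta chain that binds vitronectin, was 9.06, 4.36 and 5.44 CPM in the fetal libraries and 51.9, 62.2 and 60.2 CPM in the adult libraries (log2 −3.2 ± 0.33, adjusted p = 0.000255). These beta chains thus moved in opposite directions, and the lower count of the list was 8 without fetal LMPP 1 and 12 without the 3 libraries that stood apart. Of 36 actin, fascin and tubulin genes 7 were higher and 1 lower (4 higher without adult LMPP 1, 18 without the 3 libraries that stood apart). Tpm2, a tropomyosin, was 40.4 ± 8.22 against 12.8 ± 1.9 CPM (log2 1.65 ± 0.22, adjusted p = 0.000912), and Cfl1, the actin-severing protein cofilin, was 1669 ± 127 against 1037 ± 95.8 CPM (log2 0.69 ± 0.11, adjusted p = 0.00281). Of 30 collagen and matrix genes 4 were higher and 4 lower, including Thbs1, the matrix protein thrombospondin, at 0.488 ± 0.026 against 12.4 ± 7.4 CPM (adjusted p = 0.00323), and Timp2, a metalloproteinase inhibitor, at 9.38 ± 3.09 against 26.8 ± 8.85 CPM (adjusted p = 0.0111). The lower count of that list was 2 when adult LMPP 1, adult LMPP 2 or fetal LMPP 2 was left out, and its higher count was 8 without the 3 libraries that stood apart.

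Of 32 Wnt pathway genes 6 were higher and 0 lower, with a median of 0.7, or 0.48 with genes at 0 in a group set at their bound. Wnt4, a secreted ligand, was 3.77, 2.22 and 4.17 CPM in the fetal libraries and 0 in the adult ones, at least 30.4-fold higher. Fzd9, a Wnt receptor, was 23.2, 26.4 and 16.8 CPM in the fetal libraries and 5.81, 2.41 and 5.04 CPM in the adult libraries (log2 2.33 ± 0.36, adjusted p = 0.00227). Nkd1, a feedback inhibitor and Wnt target, was 5.82 ± 1.02 against 0.819 ± 0.313 CPM (log2 2.82 ± 0.44, adjusted p = 0.00216). Dkk1, a secreted inhibitor, was 0.711, 0.739 and 0.68 CPM against 0, at least 6.37-fold higher. Of 23 Notch pathway genes 3 were higher and 2 lower (1 lower when adult LMPP 1 or 3 or any fetal library was left out). Over all genes tested, 7.08% were higher and 8.29% lower. Hes1, a repressor induced by Notch, was 6.64, 5.54 and 9.52 CPM in the fetal libraries and 0.101, 0.252 and 0.491 CPM in the adult libraries (log2 4.62 ± 0.60, adjusted p = 0.000885), and Dtx3, a deltex ubiquitin ligase, was 42.1 ± 4.5 against 98.4 ± 25.4 CPM (adjusted p = 0.00762). Notch1 itself was 53.5 ± 26.3 against 39.95 ± 21.2 CPM and did not pass (adjusted p = 0.734).

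Genes that respond to glucocorticoids gave calls in both directions, 2 higher and 4 lower of 22 (5 and 7 without the 3 libraries that stood apart). The shares over all genes tested were 7.08% and 8.29%. Klf9, a direct target of the receptor, was 0.853, 0.591 and 0.468 CPM in the fetal libraries and 6.92, 5.49 and 5.04 CPM in the adult libraries (log2 −3.15 ± 0.32, adjusted p = 0.000198). Pik3ip1, an inhibitor of PI3 kinase, was 28.7 ± 7.99 against 122 ± 35.5 CPM (adjusted p = 0.00107). Cdkn1c, the imprinted cell cycle inhibitor p57, was 31.5 ± 12.4 against 4.87 ± 0.46 CPM (log2 2.7 ± 0.34, adjusted p = 0.000683), and Mt1, a metallothionein, was 17.3 ± 5.99 against 4.19 ± 0.399 CPM (adjusted p = 0.000903). Nfil3, a transcription factor of the clock and of innate lymphoid development, was 63.8 ± 11.4 against 16.5 ± 1.31 CPM (log2 1.95 ± 0.28, adjusted p = 0.0013). It was among 2 higher and 1 lower of 19 circadian genes, against 7.08% and 8.29% of all genes tested.

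Among lipid mediators, 4 of 22 leukotriene and prostaglandin genes were higher and 4 lower, where all genes tested gave 7.08% and 8.29%. The higher count was 2 when adult LMPP 1 or 2 or fetal LMPP 1 or 2 was left out. It was 8 without the 3 libraries that stood apart. Ptgs1, the cyclooxygenase COX-1, was 111, 80.2 and 102 CPM in the fetal libraries and 9.7, 20.4 and 10.3 CPM in the adult libraries (log2 2.86 ± 0.29, adjusted p = 0.000198). Ltc4s and Ptgds, which make leukotriene C4 and prostaglandin D2, were 1.15 ± 0.189 against 9.29 ± 1.07 CPM (adjusted p = 0.000912) and 0.789 ± 0.234 against 6.64 ± 1.35 CPM (adjusted p = 0.00153). Of 36 antioxidant and xenobiotic enzymes 8 were lower and 2 higher (0 higher when adult LMPP 1 or fetal LMPP 1 was left out, 1 without adult LMPP 2 or fetal LMPP 3, and 8 without the 3 libraries that stood apart). Gpx7, a peroxidase of the endoplasmic reticulum, was 0.24 ± 0.209 against 11.5 ± 3.37 CPM (log2 −5.53 ± 0.76, adjusted p = 0.00111), and Gclm, of glutathione synthesis, was 42.7 ± 3.27 against 86.9 ± 5.33 CPM (adjusted p = 0.00271). In the iron and heme list 4 of 27 were lower and 0 higher, with Trf, transferrin, at 78.6 ± 22.5 against 246 ± 32.6 CPM (adjusted p = 0.00271) and Blvrb, a biliverdin reductase, at 4.04 ± 0.174 against 13.4 ± 2.01 CPM (adjusted p = 0.000448). That count was 2 when adult LMPP 1 or 2 or fetal LMPP 2 or 3 was left out. Cpt1a and Acadl, of fatty acid oxidation, were 18.2 ± 2.78 against 108 ± 41 CPM (adjusted p = 0.000915) and 86 ± 19.8 against 202 ± 14.1 CPM (adjusted p = 0.00102), while Fabp5, a fatty acid carrier, was 189 ± 9.29 against 77.8 ± 15.5 CPM (adjusted p = 0.0013). Of 29 cathepsins and lysosomal enzymes 6 were lower and 4 higher, led by Ctsf, a cysteine cathepsin, at 3.04 ± 1.35 against 22.2 ± 1.76 CPM (adjusted p = 0.000348). The higher count there was 2 when adult LMPP 1 or 2 or fetal LMPP 3 was left out.

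Chromatin and growth control genes were called in both directions, at shares near the 7.08% higher and 8.29% lower of all genes tested. Of 31 TET, DNMT and Polycomb genes 2 were higher and 3 lower (1 higher when adult LMPP 1 or fetal LMPP 2 or 3 was left out, and 7 in each direction without the 3 libraries that stood apart). Dnmt3b, which sets new DNA methylation, was 469, 601 and 612 CPM in the fetal libraries and 130.2, 123 and 72 CPM in the adult libraries (log2 2.37 ± 0.36, adjusted p = 0.00189), and Cbx7, a Polycomb reader of histone marks, was 6.69 ± 0.382 against 16.6 ± 1.92 CPM (adjusted p = 0.00194). Of 22 p53 targets 2 were higher and 2 lower. The higher count was 0 when adult LMPP 2 or fetal LMPP 2 was left out and 1 when adult LMPP 1 or fetal LMPP 1 or 3 was, and the counts were 4 and 5 without the 3 libraries that stood apart. Cdkn1a, the cell cycle inhibitor p21, was 10.3 ± 3.68 against 26.2 ± 2.15 CPM (adjusted p = 0.0123), and Bbc3, the apoptosis inducer Puma, was 4.95 ± 1.03 against 10.8 ± 0.42 CPM (adjusted p = 0.00858). In the other lists no direction held more than 4 calls: Schlafen and Ms4a genes 2 higher and 4 lower of 16 (1 higher when any LMPP library but fetal LMPP 2 was left out, 2 lower without fetal LMPP 2 and 1 without fetal LMPP 3), axon guidance 3 and 0 of 38 (median 0.31, or 0.0 at the bound), and complement and scavenger receptors 1 and 2 of 20 (1 lower when adult LMPP 1 or 3 or fetal LMPP 2 was left out). The axon guidance count was 1 when adult LMPP 1 or 3 or any fetal library was left out, and 6 higher and 3 lower without the 3 libraries that stood apart.

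Some genes were read at 1 age only. With at least 1 CPM in every library of the other age, 17 genes had no count in any adult LMPP library and 12 had none in any fetal LMPP library, and all 29 were called. Lrrc32, which holds latent TGF-beta at the cell surface, was 6.43, 2.85 and 3.65 CPM in the fetal libraries. Podxl, a sialomucin of fetal blood progenitors, was 1.9, 3.99 and 4.89 CPM there, and Tnfrsf25, a death receptor, was 6.64, 3.25 and 6.63 CPM. These 3 names, and the next 2, were chosen from the 29 after their values were seen. Lypd6b, a membrane-anchored protein of the Ly6 family, was 5, 7.79 and 6.16 CPM in the adult libraries and 0 in the fetal ones, and Pgr, the progesterone receptor, was 2.22, 2.97 and 9.1 CPM there. Car1, a carbonic anhydrase, was 3.23, 5.88 and 8.38 CPM in the adult libraries, at least 60.1-fold lower in fetal LMPP. Npdc1, a neural differentiation factor, was 5, 7.23 and 6.58 CPM, at least 64.6-fold lower.

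For a small share of genes the age difference in LMPP differed from that in HSC. The interaction, the fetal against adult difference in LMPP minus that in HSC, was called for 137 genes (0.931%), 57 above (0.387%) and 80 below (0.543%). Of the 137, 55 were called in LMPP only, 40 in HSC only and 42 in both, of which 21 had opposite directions. For 2166 of the 2263 genes called in LMPP the interaction was not called, which does not show that the age difference was alike in HSC. Without adult HSC 3, fetal LMPP 1 and adult LMPP 3 the interaction counts were 330 and 459. Leaving out adult LMPP 1 gave 31 and 33, and they were 14 and 31 without fetal HSC 1, and 8 and 24 without fetal HSC 2. The count below was 43 without adult HSC 1, 51 without adult HSC 2, and leaving out adult LMPP 2, fetal LMPP 2 or fetal LMPP 3 gave 53, 48 or 52. In HSC 304 genes were higher and 425 lower (4.95%). Of the genes called higher in LMPP, 144 were also higher in HSC, 13.8% of the LMPP calls and 47.4% of the HSC calls, and 274 were lower in both, 22.4% and 64.5%. The groups of the 2 comparisons share no library.

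Among the 21 genes that moved in opposite directions were the LMPP markers Flt3 and Cd53. Flt3 was 29 ± 1.12 against 13.4 ± 3.61 CPM in fetal against adult HSC (adjusted p = 0.00893) where it was lower in fetal LMPP, and the interaction was −2.11 (adjusted p = 0.00702). Cd53 was 49.8 ± 2.62 against 8.23 ± 2.89 CPM in HSC (adjusted p = 0.000214; interaction −3.69, adjusted p = 0.0011). In both the age difference of LMPP ran toward the adult and that of HSC toward the fetal cells, although the HSC levels were far below those of LMPP. Cavin2, a caveola protein abundant in megakaryocytes, was 4.85, 6.02 and 11.2 CPM in fetal and 0 in adult LMPP, at least 66.0-fold higher, but 28.2 and 13.5 CPM in fetal and 229, 126 and 132 CPM in adult HSC. Pf4, platelet factor 4, was 10.2 ± 8.41 against 1.03 ± 0.27 CPM in LMPP (adjusted p = 0.0174) and 17.8 ± 12.1 against 284 ± 218 CPM in HSC (adjusted p = 0.0271), and it moved with the megakaryocyte markers given above. Gimap4, called in LMPP, was 24.7 ± 2.02 against 17.4 ± 6.15 CPM in HSC (adjusted p = 0.459; interaction 3.13, adjusted p = 0.0136). Hes1 was 2.26 ± 0.634 against 3.69 ± 1.7 CPM in HSC (adjusted p = 0.579; interaction 5.33, adjusted p = 0.0172). Ptgs1 was 157 ± 0.827 against 172 ± 23.4 CPM in HSC (adjusted p = 0.88; interaction 2.99, adjusted p = 0.0108), and Itgb5 was 2.91 ± 1.16 against 3.78 ± 0.628 CPM (adjusted p = 0.659; interaction −2.83, adjusted p = 0.0209). For these last 4 genes the HSC difference did not pass while the difference between the comparisons did.

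**Figure D4:**
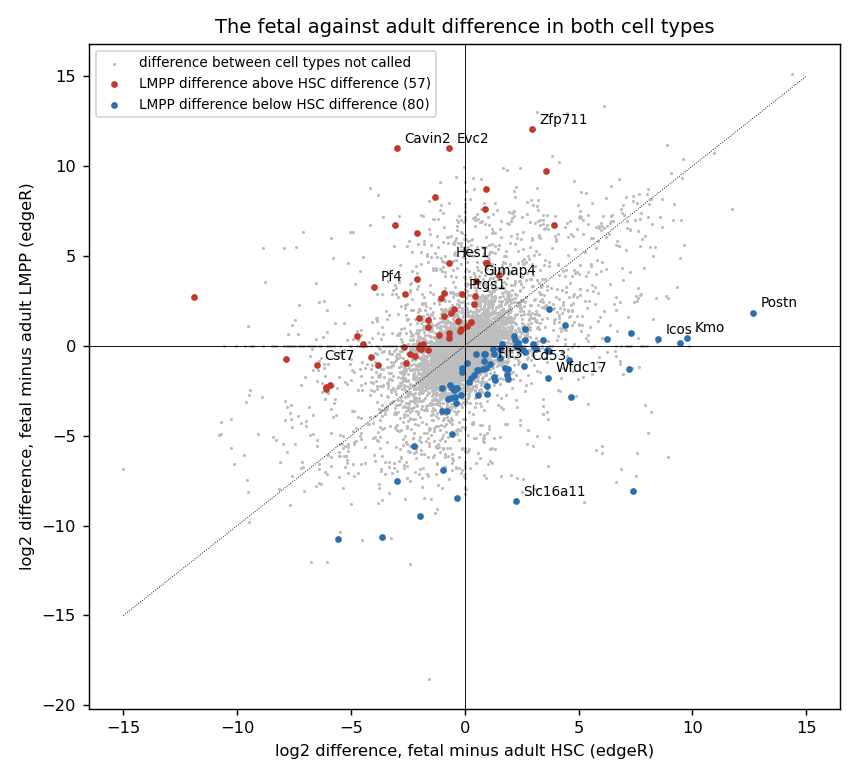
Each point is a tested gene, with its log2 difference, fetal minus adult, in HSC and in LMPP on the axes, a dotted line where both are equal, and genes with a called interaction in red (57 above) or blue (80 below). Pf4 and Cavin2 sit at the upper left, higher in fetal LMPP and lower in fetal HSC, and Flt3 and Cd53 at the lower right.

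Open chromatin was described by 1 list per age, so no region has a spread between replicates and no region was tested. The fetal list held 37156 distinct regions covering 24697596 bases, of which 30967 (83.3%) overlapped an adult region by at least 1 base. The adult list held 50579 regions covering 32144202 bases, of which 30928 (61.1%) overlapped a fetal one. The adult list thus had 19651 regions of its own and the fetal list 6189, and the authors' median signal value was 8.11 in the adult and 5.62 in the fetal list. Cutting both lists to equal length gave shares of 73% and 72.2%. Shared regions lay within 1 kb of a gene start in 35.1% (fetal) and 35.2% (adult) of cases, and own regions in 11.9% and 8.73%.

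Peaks at gene starts differed with the direction of RNA. A region within 1 kb of the start in the adult list only was found for 15.2% of the genes lower in fetal LMPP (186), 4.89% of those higher (51) and 6.64% of all tested genes. A region in the fetal list only was found for 3.93% of the higher genes (41), 2.46% of the lower genes (30) and 2.49% of all. With lists of equal length the adult-only shares were 7.94%, 2.11% and 3.01%, and the fetal-only shares were 10.6% of the higher, 7.04% of the lower and 7.54% of all genes. The levels moved with the length of the lists, while the order of higher and lower genes was kept. Within 10 kb of the gene, 59.1% of the lower, 40.8% of the higher and 47.2% of all genes had an adult-own region, and 19.0%, 22.5% and 19.1% had a fetal-own one.

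**Figure D5:**
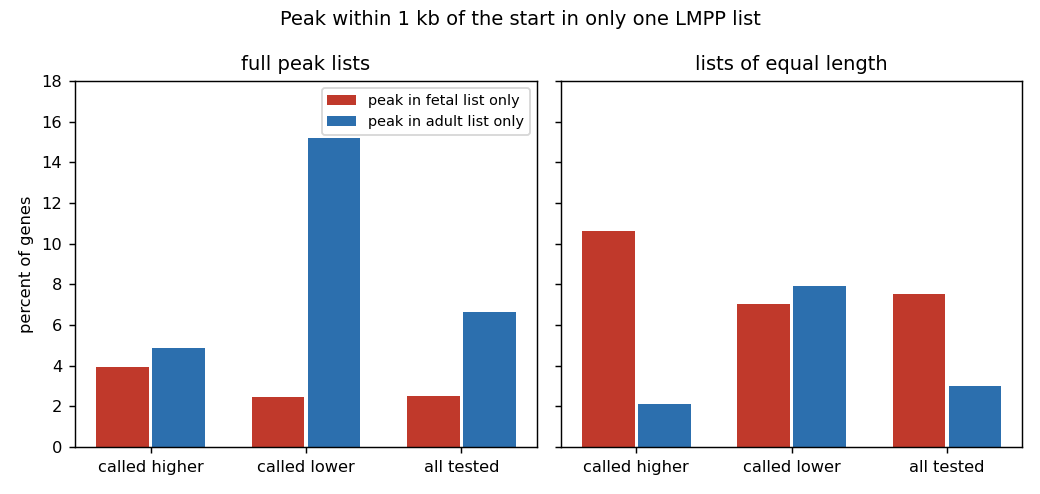
Bars give the percentage of genes with a region within 1 kb of the start in the fetal list only or in the adult list only, for genes called higher, called lower and all tested, with the full lists and with lists of equal length. Adult-only regions mark 15.2% of the genes lower in fetal LMPP against 6.64% of all genes with the full lists, and 7.94% against 3.01% with equal lengths.

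The genes whose start region and RNA moved together included several described above. Igf2bp2, Igf2bp3 and Igf2bp1 had a start region in the fetal list only (Igf2bp1 at chr11:96006458-96007861, 514 bases upstream), as did Rps4l, Snrpn and Ccnd1. Signal values at the start were 3.91 for Igf2bp2, 3.42 for Igf2bp3 and 2.91 for Igf2bp1. The median of the fetal list's own regions was 4.23. The −log10 q of the Igf2bp1 region was 6.72, under the 10 of the stricter setting. H2-Q6, H2-Ob, H2-Eb1, Casp1, Nkg7, Sp100, Prss57 and Plac8 had a start region in the adult list only. Others moved without such a difference: Lin28b, Hmga2, Id1 and Id3 had a region within 1 kb of the start in both lists, though only the fetal list covered the start of Lin28b itself. Dlk1, Gimap4, Tgtp2 and Ndrg1 did not differ between the lists at the start, with both lists holding a region for Ndrg1 and neither for the other 3. At other genes named here the start region ran against the RNA: Tpm2 and Eif3d, higher in fetal LMPP, had one in the adult list only, and Clec2i, Gbp10 and Ltc4s, lower there, had one in the fetal list only.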

How the data were processed

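RNA of sorted cells was sequenced after an oligo-dT cDNA and tagmentation protocol, per the labels' protocols, which keeps neither strand nor molecular identifiers. The authors deposited expected counts of reads in the exons of 25124 genes on mm10, unnormalized, per the file headers; 22.5% of values were not whole and were rounded, and 0 columns belonged to other libraries. For ATAC-seq, which tags open chromatin, the authors deposited 1 peak list per group, with a score and a −log10 q value per peak and a signal value, a fold ratio over background. These served to describe and select peaks inside each list. No source used here says whether reads were pooled before the call. The submitters' processing notes name, without roles, the tools Bowtie2 2.3.5, MACS2, SAMtools 1.9, Picard, STAR, Trim Galore, HOMER, RSEM and DESeq2 and the builds mm10, NCBIM37 and GRCm38.p5.

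Counts were fitted in R 4.3.3 with edgeR 4.0.16: filterByExpr (14720 genes), TMM, and quasi-likelihood with a mean for each of the 4 groups, all 11 libraries sharing 1 estimate of the spread (common biological coefficient of variation 0.372, 3.46 prior degrees of freedom). Benjamini-Hochberg adjustment covered all genes tested, and calls were made at an adjusted p under 0.05; every adjusted p is from edgeR unless another tool is named. The interaction is the fetal against adult difference in LMPP minus that in HSC. Values are CPM on TMM-scaled libraries as mean ± SD, fetal against adult, n = 3 per age in LMPP and 2 and 3 in HSC; values by library are in the order of replicates 1 to 3; log2 differences carry ± SE. Library totals of 19.8 to 64.78 M counts set a floor of 3 counts per library, and folds against a group at 0 are lower bounds at it. Floors cover counting error only, since reads without molecular identifiers are not independent molecules. On simulated counts of 14614 genes for this comparison, 6% of genes changed by 1 on the log2 scale and 79% of those changed by 2 were called, with 3 false calls. The simulation gave every gene the common spread and changed far fewer genes than were called here. Its shares therefore do not give the power or false calls of the real comparison.

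The members, the 37 gene lists, the 13 marker lists and the naming rule were chosen with earlier results of these data known. Named were the 15 largest rises and falls at a mean of at least 10 CPM without overlap, the 10 largest gains and losses in CPM, up to 4 called members of each list with the lowest p and members a sentence needs, the 6 largest called interactions in each direction, 8 genes per direction with a start peak only at the age of higher RNA, the 3 lowest p of each named family or run, and fixed genes. Some of them are given only as counts, and a few are not reported here. Summits of the same peak were merged. Alternatives were DESeq2 1.42.0, other scalings and filters, a replicate term, only the LMPP libraries, libraries left out, and stricter or equal-length peak lists. Reads of near-identical, overlapping or antisense genes cannot always be told apart.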

Additional observations from a re-analysis of the deposited data

Results flagged for a closer look

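For 11 genes the fetal against adult difference in LMPP differed from that in HSC by the interaction test, from the largest called values in each direction among genes of at least 10 CPM in 1 group. Fitted values of genes at 0 in a group depend on the prior count, so levels are given beside them.

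Above in LMPP were Cavin2 (interaction log2 13.95), Evc2 (11.69), Pls1 (9.79), Treml1 (9.57) and Zfp711 (9.08). Cavin2 was 28.2 and 13.5 CPM in fetal and 229, 126 and 132 CPM in adult HSC, and in LMPP 4.85, 6.02 and 11.2 CPM in fetal and 0 in adult libraries. Evc2, a ciliary protein, was 16.4 and 13.8 against 35.8, 27.7 and 10.1 CPM in HSC, and in LMPP at least 65.9-fold higher in the fetal cells. Pls1, an actin bundling protein, was 2.01 and 1.29 against 21.2, 7.81 and 12.3 CPM in HSC and 0.746, 0.222 and 0.085 CPM against 0 in LMPP, and its call was lost without adult HSC 1, 2 or 3 (adjusted p = 0.0875, 0.0593 and 0.0514), fetal HSC 1 or 2 (0.154 and 0.221), adult LMPP 1, 2 or 3 (0.0788, 0.0751 and 0.06) or fetal LMPP 2 (0.0665). Treml1, a platelet receptor, was 10.3 and 6.41 against 24.8, 14.51 and 22.5 CPM in HSC and 1.74, 0.702 and 0.807 CPM against 0 in LMPP, and its adjusted p was 0.0668 without fetal HSC 2. Zfp711, a zinc finger protein, was higher in fetal cells of both kinds, with 21.9 and 31.7 against 4.06, 3.19 and 2.99 CPM in HSC and 16.5, 14.7 and 14.49 CPM against 0 in LMPP.

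Below in LMPP were Slc16a11 (−10.91), Postn (−10.83), Kmo (−9.3), Icos (−8.11), Wfdc18 (−7.52) and Cysltr2 (−6.97). Slc16a11, a monocarboxylate transporter, was 3.23 and 3.07 against 0.571, 1.11 and 0.349 CPM in HSC, but 0.231, 0.222 and 0 CPM in fetal and 63.4, 62.8 and 80.5 CPM in adult LMPP. Postn, the matrix protein periostin, was 19.3 and 27.7 CPM in fetal and 0 in adult HSC, against 22.0 ± 3.40 and 6.16 ± 1.45 CPM in fetal and adult LMPP. Kmo, of tryptophan breakdown, was 2.91 and 3.32 CPM and Icos, a T-cell costimulator, 0.905 and 1.66 CPM in fetal HSC, and both were 0 in adult HSC. In LMPP Kmo was 18.1 ± 5.55 against 13.1 ± 3.98 CPM and Icos 11.9 ± 0.45 against 9.16 ± 2.75 CPM. Wfdc18, a small secreted inhibitor, was 2.08 and 3.56 against 0.19, 0.0325 and 0.0997 CPM in HSC and 2.06, 1.37 and 1.4 against 9.35, 9.36 and 16.1 CPM in LMPP. Cysltr2, a leukotriene receptor, was 1.34 and 0.61 against 12.0, 14.1 and 10.1 CPM in HSC and 0 against 6.37, 4.43 and 6.19 CPM in LMPP, at least 58.3-fold lower in fetal LMPP, and its adjusted p was 0.0508 with a replicate block.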

How the results depend on the processing

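Of the named genes, 238 were called in LMPP, and 194 kept their call under every alternative run, 44 lost it in at least 1 and 0 reversed. DESeq2 called 1607 genes higher and 1840 lower in fetal LMPP and gave 301 interactions above and 370 below, and without adult HSC 3, fetal LMPP 1 and adult LMPP 3 the counts were 2195, 2215, 330 and 459. With 1 LMPP library left out at a time, 562 to 854 genes were higher and 749 to 1168 lower, and without adult HSC 3 1587 and 1583 were. With any 1 library left out there were 8 to 66 interactions above and 24 to 104 below; where that left fetal HSC with 1 library, it is assumed to vary like the other groups. Scaling by total count gave 122 interactions below. With a replicate block the counts were 967 higher, 1111 lower, 41 above and 45 below. Same-numbered LMPP libraries deviated from their group means with correlations of −0.138, 0.0808 and −0.167, and differently numbered ones with −0.186 to 0.278. So few libraries cannot show whether same-numbered ones share more than a number. RLE scaling, both other filters on low counts and a fit of only the LMPP libraries kept the LMPP counts within 1.5 times. For peaks with a −log10 q of at least 10, 86.7% of fetal and 59.8% of adult regions were shared, with overlap of at least 50% of both regions 76.1% and 55.9%, and with lists of equal length 73% and 72.2%. At that q, fetal-only start regions were found for 1.72% of lower and 2.01% of all genes and adult-only ones for 7.53% of all. With equal lengths, an alternative chosen after seeing the data, fetal-only shares were 10.6% of higher, 7.04% of lower and 7.54% of all genes, and adult-only shares 2.11%, 7.94% and 3.01%; counts by expression level and symbol root, and regions within 10 kb, were also added then. The cause of these shifts was not tested. The promoter motif alternative was not run as a comparison, since windows covered too few genes. Depth limits genes near the floor of 3 counts.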
